A study of Rattus norvegicus with 22 samples.

Results

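The comparison of ovariectomized (OVX) with intact female rats in the ventral cervical spinal cord is described here across all genes. It used 12 of the 22 libraries of the series, 1 per rat, chosen by the group in their column names: 6 OVX females and 6 intact females. The series asked how removing the gonads changes gene expression in the ventral cord, and it also holds intact males and gonadectomized (GDX) males. All rats were Sprague-Dawley rats, young adults by the study's methods. OVX females had the ovaries removed 2 weeks before tissue was taken, and intact females kept theirs. The study's methods describe the intact females as age-matched and mention no sham surgery for them. Loss of the ovaries therefore cannot be told apart from the operation itself and its anaesthesia. Every rat was perfused with saline, and the ventral cord of segments C3 to C6 was taken as 1 block that holds all of its cell types. The labels do not give hormone levels or the stage of the estrous cycle of the intact females.

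The ovaries are the main source of circulating estradiol and progesterone in females, and neurons, glia and vessel cells of the cord carry receptors for them. The ventral horn of segments C3 to C6 holds the phrenic motor neurons, which contract the diaphragm. Interferons are signals of antiviral defence that switch on a shared set of genes in many cell types, and estrogens are known to act on interferon signalling and on the growth of vessels.

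Levels are in CPM, counts brought to a common library size with TMM factors. Log2 fold changes are OVX minus intact, and a gene is said to have risen or fallen only at an adjusted p under 0.1 in edgeR. Adjusted p-values were computed over the 14910 genes tested. The p-values and spreads describe differences between rats. The libraries held between 12371756 and 17571887 counted reads.

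The libraries carried the genes of the labelled tissue. Cholinergic motor neuron genes were present in every library: Chat, the enzyme that makes acetylcholine, was between 25.5 and 60.5 CPM. The myelin gene Mbp was between 10900 and 13800 CPM, and the astrocyte gene Gfap between 2740 and 4020 CPM. Of the 12 listed genes of sensory ganglia, 6 passed the filter on low counts, and their summed level was between 45.2 and 85.9 CPM. Skeletal muscle RNA set 2 OVX libraries apart. Acta1, the actin of skeletal muscle, reached 18.3 CPM in OVX 1 and 28.2 CPM in OVX 4, while the remaining OVX females were between 2.37 and 4.51 and intact females between 2.43 and 6.96. Several results below are also given without those libraries.

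The libraries also differed in fragment size, and this was not balanced. The study's methods list an average fragment size for each library, and these sizes were grouped here into a short and a long class. All 6 OVX libraries and intact females 1 and 4 were short, and the other 4 intact females were long. Fragment class was therefore added to the model as an alternative, and its values are given beside many of the results. With 2 intact females in the short-fragment class, surgery and fragment class can be separated only through those rats.

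Few single genes passed the threshold, and the differences described below were mostly small shifts shared by many genes of a kind. The genes of a list were measured in the same rats and can move together. Counts of list members are therefore not counts of separate observations. In all, 5 of 14910 genes passed (0.0335%), 4 of them higher and 1 lower after OVX. These counts depended on the test and on single rats: DESeq2 called 89 higher and 75 lower, and edgeR without intact 1 called 39 and 74. At an unadjusted p under 0.05, 783 genes were higher (5.25%) and 733 were lower (4.92%). With fragment class in the model, 652 of the 14910 genes were higher and 412 lower at that level. Without OVX 1 and OVX 4, 649 were higher and 739 lower, of 14899 genes fitted. List counts from those fits are to be read beside these. In 48 genes every OVX library was above every intact library (0.322%), and in 30 every OVX library was below (0.201%). The median log2 fold change over all genes was 0.00.

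The 4 genes that rose belong to antigen presentation, interferon response and vessels. RT1-S3 encodes a class I histocompatibility molecule of the non-classical kind. It was between 6.86 and 9.30 CPM in intact females (median 8.27) and between 10.9 and 14.9 in OVX females (median 13.5), so the groups did not overlap. The log2 fold change of RT1-S3 was 0.68 (adjusted p = 0.0376, edgeR), a level 60.5% higher. With fragment class in the model it was 0.86 (adjusted p = 0.0486), and the call ended when OVX 1 (adjusted p = 0.161) or OVX 6 (adjusted p = 0.153) was left out.

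Bst2 encodes tetherin, a surface protein that interferon induces and that holds budding virus particles to the cell. It was between 2.99 and 4.98 CPM in intact females (median 3.81) and between 5.80 and 7.37 in OVX females (median 6.74). No library of 1 group reached the other group. Bst2 rose by a log2 fold change of 0.80 (adjusted p = 0.0852), and with fragment class in the model the value was 0.96 but no longer called (adjusted p = 0.188). Bst2 was called in 5 of the 12 fits that left out 1 library.

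Kdr is the receptor through which VEGF acts on endothelial cells, and Cd93 is a surface glycoprotein of endothelial cells that takes part in vessel growth. Kdr was between 10.4 and 16.1 CPM in intact females (median 12.5) and between 16.1 and 26.5 in OVX females (median 22.6). The lowest OVX libraries, OVX 3 (16.1) and OVX 5 (16.9), lay beside the highest intact female, intact 1. Kdr rose by a log2 fold change of 0.77 (adjusted p = 0.0966). Cd93 was between 2.78 and 5.85 CPM in intact females (median 4.74) and between 5.94 and 11.1 in OVX females (median 9.24), with OVX 3 again the lowest. Cd93 rose by a log2 fold change of 0.99 (adjusted p = 0.0999). In the model with fragment class the log2 fold changes were 0.70 for Kdr and 1.08 for Cd93, and neither was called (adjusted p = 0.456 and 0.332). Of the 12 fits that left out 1 library, Kdr was called in 6 and Cd93 in 5.

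Without the muscle-rich libraries OVX 1 and OVX 4, the log2 fold changes were 0.63 for RT1-S3, 0.76 for Bst2, 0.68 for Kdr and 0.84 for Cd93, in a fit with 4 OVX rats. None was then called (adjusted p between 0.124 and 0.197). All 4 were called without OVX 4 alone (adjusted p = 0.0900), and none was called without OVX 6.

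**Figure D1:**
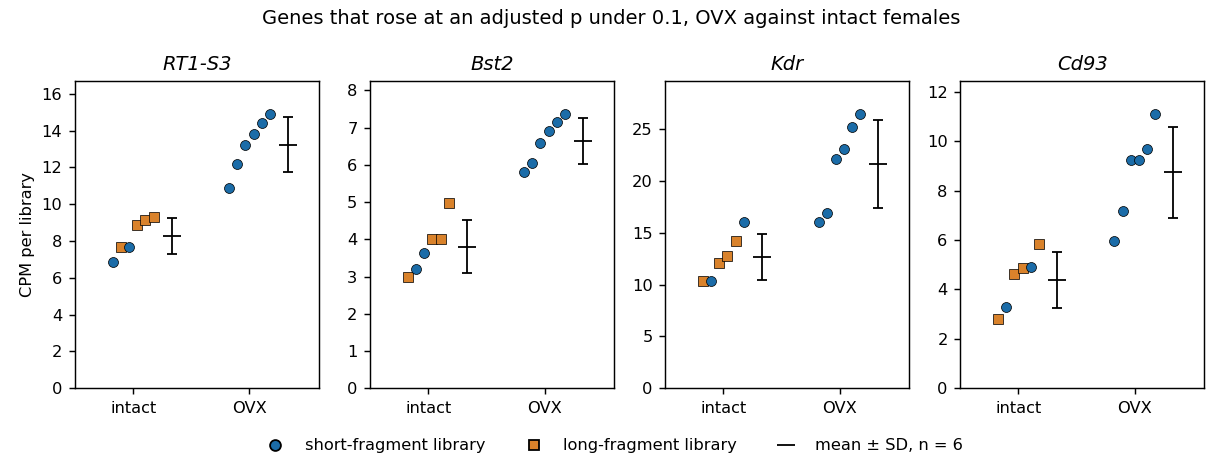
Levels of the 4 genes that rose at an adjusted p under 0.1, in the 6 intact and 6 OVX females, marked by fragment class. RT1-S3 was between 6.86 and 9.30 CPM in intact females and between 10.9 and 14.9 in OVX females, and Bst2 between 2.99 and 4.98 and between 5.80 and 7.37.

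The genes that interferons induce showed a broad shift in 1 direction. They encode sensors of foreign RNA, enzymes that block viral replication, and the transcription factors that carry the signal onward. Of 50 listed genes 43 were tested, 41 were higher in OVX females and 2 were lower. At an unadjusted p under 0.05, 25 were higher and 0 were lower, against 5.25% and 4.92% of all genes. The median log2 fold change was 0.34, against 0.00 over all genes. Bst2 was the member that passed the adjusted threshold.

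The summed level of the interferon list was between 418 and 521 CPM in intact females and between 523 and 616 in OVX females. The short-fragment intact females 1 and 4 were at 508 and 424, so OVX libraries were higher within that class as well. Again 41 of the 43 genes were higher with fragment class in the model, where the median was 0.38. At an unadjusted p under 0.05, 12 of the 43 were higher, beside 652 of all 14910 genes in that model. Without the muscle-rich libraries OVX 1 and OVX 4 the median of the list was 0.31. In that fit 13 members were higher at that level, beside 649 of all 14899 genes. Adar, an RNA-editing enzyme and the member with the most reads, was close to level, at 106 to 112 CPM in intact females and 107 to 121 in OVX females (log2 fold change 0.06).

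Mx2, a GTPase that restricts viruses, came next to Bst2 in p. It was between 10.5 and 18.3 CPM in intact females (median 13.9) and between 15.7 and 27.0 in OVX females (median 23.6), and only OVX 5 (15.7) lay within the intact range. The log2 fold change of Mx2 was 0.71 (adjusted p = 0.115). Lgals3bp, a secreted glycoprotein, was between 8.33 and 13.2 CPM in intact females and between 12.3 and 17.7 in OVX females, with OVX 5 and OVX 6 inside the intact range. Its log2 fold change was 0.52 (adjusted p = 0.150). The members that were lower were Ifi27l2b, a mitochondrial protein (log2 fold change −0.12), and Psmb8, a subunit of the immunoproteasome (−0.15). Psmb8 was at 4.24 CPM in intact 6 and between 1.6 and 1.99 in the other intact females, and its log2 fold change was 0.14 without intact 6 and 0.10 with fragment class.

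Larger fold changes came from members of low level, named here after their values were seen. Irf7, the transcription factor that amplifies the interferon response, was between 0.802 and 4.18 CPM in intact females and between 3.06 and 4.06 in OVX females. Intact 1 held the highest level of Irf7, and the log2 fold change was 0.87 (adjusted p = 0.317). Usp18, which restrains the interferon receptor, was between 0.267 and 2.78 CPM in intact females and between 2.41 and 5.36 in OVX females, with a log2 fold change of 1.08 (adjusted p = 0.354). The log2 fold changes of the antiviral genes Rsad2, Oas1a, Mx1 and Isg15 were 1.01, 0.95, 0.87 and 0.80, and their adjusted p-values were between 0.307 and 0.456. In these 6 genes intact 5 was the lowest library, and intact 1 was among the OVX libraries or near them. In Mx1, for example, intact 5 was at 0.468 CPM and intact 1 at 5.14, against 2.74 to 7.32 in OVX females. In the model with fragment class the log2 fold changes of Irf7, Rsad2 and Mx1 were 0.33, 0.47 and 0.41. The median of the whole list was 0.38 in that model, against 0.34 without fragment class.

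**Figure D2:**
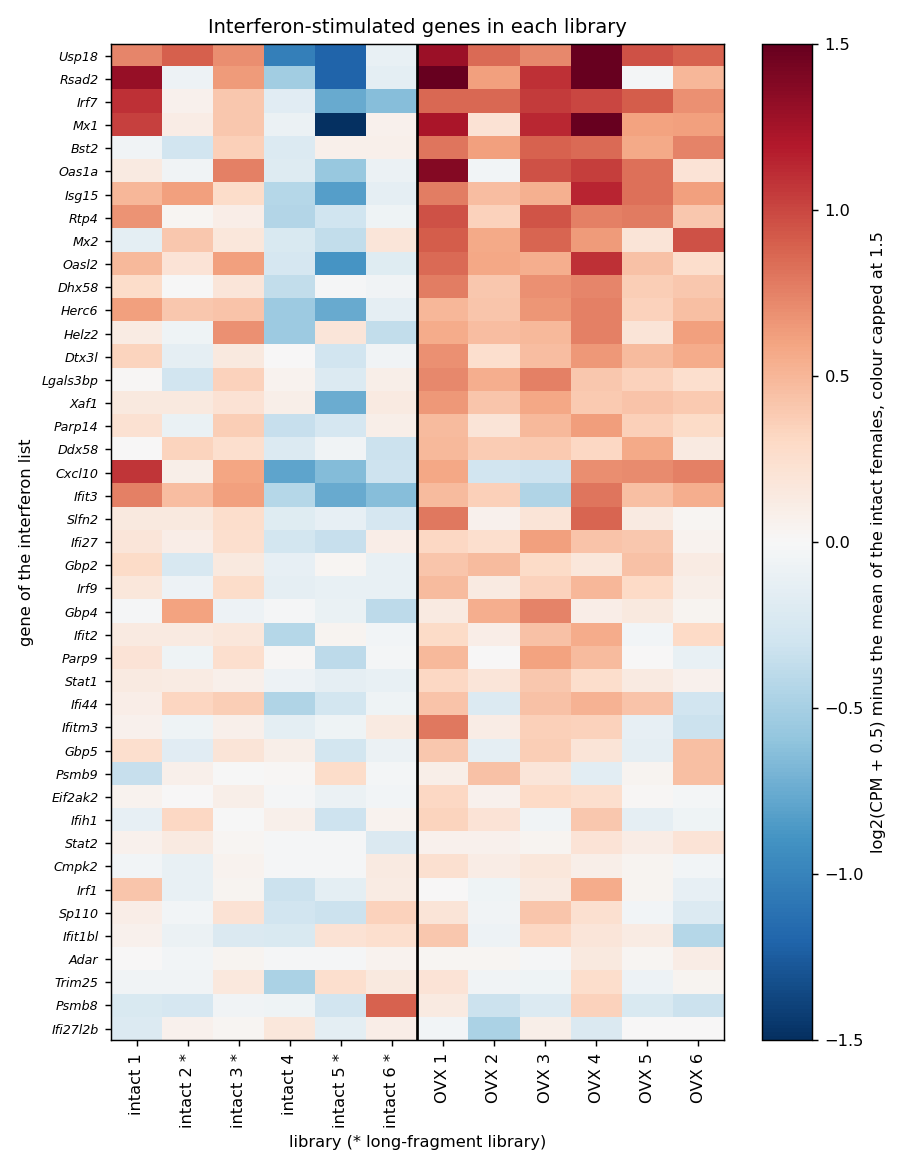
Levels of the 43 tested interferon-stimulated genes in each library, as log2 differences from the mean of the intact females. The mean difference between OVX and intact females was 1.07 for Usp18, 0.74 for Bst2, 0.06 for Adar and −0.10 for Psmb8.

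Interferon-stimulated genes share a short promoter element bound by the ISGF3 and IRF factors, so the promoters of the members were searched for it. The letters searched were GAAANNGAAA on both strands, in the RefSeq promoter table for build GRCr8, 250 bases before to 50 bases after each start site. Of the 43 tested members 33 had a promoter in the table, and 22 of these held the letters (66.7%). The same letters were in the promoters of 4.12% of the 27457 genes of the table and in 3.05% of the 10442 tested genes with a promoter. The list holds genes known to be induced by interferons, so its share describes the list and not the effect of OVX. Of the genes that rose or fell, Bst2, RT1-S3 and Kdr had a promoter in the table. The letters were in the promoters of Bst2 and RT1-S3, which are printed because they carry the strongest result, with the matches in capitals. The match was absent from the 300 bases of Kdr. Both promoters run in the direction of transcription, Bst2 from chr16:18254918-18255217 on the minus strand and RT1-S3 from chr20:2675278-2675577 on the plus strand. In Bst2 a pair of matches overlap.
Bst2 promoter: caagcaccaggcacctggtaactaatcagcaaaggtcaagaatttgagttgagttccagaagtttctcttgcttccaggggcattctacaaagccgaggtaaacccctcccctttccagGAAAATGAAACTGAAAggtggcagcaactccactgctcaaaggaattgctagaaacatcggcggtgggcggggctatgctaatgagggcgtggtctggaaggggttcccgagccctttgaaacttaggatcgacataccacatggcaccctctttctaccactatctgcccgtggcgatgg
RT1-S3 promoter: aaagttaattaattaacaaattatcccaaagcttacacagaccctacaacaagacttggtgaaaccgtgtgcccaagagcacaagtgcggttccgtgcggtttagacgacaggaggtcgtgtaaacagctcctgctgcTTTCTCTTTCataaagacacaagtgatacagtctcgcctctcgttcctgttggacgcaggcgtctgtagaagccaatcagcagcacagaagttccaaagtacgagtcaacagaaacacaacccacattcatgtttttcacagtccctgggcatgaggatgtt

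Windows around 1 match in further members show the same letters or their reverse complement TTTCNNTTTC in varied surroundings. They were chosen among members with a log2 fold change above 0.5, with Psmb8 as a member whose direction depended on intact 6 and on the model. They lie at chr1:205800074-205800101 (minus) for Irf7, chr12:41330416-41330443 (plus) for Oas1a, chr6:48788249-48788276 (minus) for Rsad2, chr10:104127880-104127907 (minus) for Lgals3bp and chr20:4657017-4657044 (minus) for Psmb8. A match describes the letters of the promoter and is not a measured binding site.
Irf7: cagtttaggTTTCATTTTCccgagacgc
Oas1a: ccctctcggGAAATGGAAActgaaaatc
Rsad2: tggttcaacTTTCATTTTCagaaaacag
Lgals3bp: tgttttctgGAAATCGAAActagactag
Psmb8: tgctgtggcTTTCGCTTTCacttccttg

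Class I presentation carries peptides from inside the cell to its surface, and interferons raise it. Of 20 tested genes of the pathway 18 were higher in OVX females, 6 at an unadjusted p under 0.05 and 0 lower at that level. The median log2 fold change was 0.20 (0.23 with fragment class, 0.11 without OVX 1 and OVX 4). Besides RT1-S3, the class I gene RT1-CE4 was between 5.55 and 8.4 CPM in intact females and between 7.86 and 9.72 in OVX females. Intact 3 was the only intact library above the lowest OVX library. The log2 fold change of RT1-CE4 was 0.45 (adjusted p = 0.171). B2m, the light chain of all class I molecules, was between 112 and 139 CPM in intact females and between 134 and 162 in OVX females (log2 fold change 0.22, adjusted p = 0.219). Calr, a chaperone with the most reads of the list, was level (0.01). The interferon letters were in 7 of the 16 class I promoters in the table (43.8%). RT1 genes are close paralogs, and reads shared among them cannot be assigned further.

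Other immune groups had few genes at an unadjusted p under 0.05. Class II genes, which mark antigen-presenting cells, were higher in 6 of 7 tested with a median of 0.24, which was 0.04 with fragment class in the model. Of 21 complement genes 14 were higher and 3 were at an unadjusted p under 0.05, with a median of 0.08. C3, the central complement protein, was between 118 and 167 CPM in intact females and between 164 and 199 in OVX females, where only OVX 5 lay inside the intact range (log2 fold change 0.32, adjusted p = 0.150). Genes of activated microglia and cytokines were higher in 18 of 22 tested, with a median of 0.11 that was 0.28 with fragment class, and 2 were at an unadjusted p under 0.05. Genes of perivascular macrophages were higher in 4 of 6 (median 0.21). Of 19 lymphocyte genes 2 were tested and both were higher, and of 14 granulocyte genes all 3 tested were higher (medians 0.24 and 0.19). S100a9, a calcium-binding protein of neutrophils, was between 0.187 and 0.983 CPM in intact females and between 1.10 and 1.74 in OVX females, without overlap (log2 fold change 1.67, adjusted p = 0.141).

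Homeostatic microglia are the resident immune cells of the cord, and their genes showed a small shift. Of 17 tested genes 15 were higher, 5 at an unadjusted p under 0.05, with a median log2 fold change of 0.13. In the model with fragment class 12 were higher, 1 at that level, and the median was 0.08. Their summed level was between 340 and 369 CPM in intact females and between 370 and 413 in OVX females. The largest contributor was Sall1, a transcription factor of microglial identity that astrocytes also use (79.1 to 96.7 against 92.4 to 107 CPM, log2 fold change 0.19). Csf1r, the receptor that keeps microglia alive, had a log2 fold change of 0.13, and Laptm5, a lysosomal protein, 0.19. Aif1, the usual stain for microglia, was level (0.02).

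Vessel genes showed a broad shift as well. Endothelial cells line the vessels of the cord and keep the barrier between blood and tissue, with pericytes and smooth muscle around them. All 22 tested endothelial genes were higher in OVX females, with a median log2 fold change of 0.50. At an unadjusted p under 0.05, 19 were higher, against 5.25% of all genes. Kdr and Cd93 were the members that rose. Flt1, the decoy receptor for VEGF and the member with the most reads, was between 25.4 and 60.1 CPM in intact females and between 44.1 and 79.6 in OVX females. Its groups overlapped, with intact 1, 3 and 5 inside the OVX range, and its log2 fold change was 0.54 (adjusted p = 0.293). Mmrn2, an endothelial matrix protein that binds VEGF and Cd93, was between 4.74 and 8.90 CPM in intact females and between 7.44 and 12.5 in OVX females (log2 fold change 0.66, adjusted p = 0.183). The defining genes Cldn5, a tight junction protein, and Cdh5, a cadherin, had log2 fold changes of 0.49 and 0.34 (adjusted p = 0.316 and 0.468).

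The summed level of the endothelial list was between 177 and 326 CPM in intact females and between 277 and 426 in OVX females. Within each group the rats differed widely: OVX 3 (277) and OVX 5 (294) were below intact 3 (305) and intact 5 (326). With fragment class in the model the median was 0.59, and 13 of the 22 genes were higher at an unadjusted p under 0.05. Over all genes, 652 of 14910 were higher at that level in that model. Without OVX 1 and OVX 4 the endothelial median was 0.37, with 12 genes higher at that level, beside 649 of all 14899 genes. In bulk tissue, more cells of a type and more RNA per cell cannot be told apart. Of the 22 endothelial genes 12 had a promoter in the table, and 0 held the interferon letters. Over all tested genes with a promoter the share was 3.05%, so 0 of 12 is near it.

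The neighbouring vessel groups leaned the same way with smaller medians. All 15 tested genes of pericytes and smooth muscle were higher (median 0.25, 7 at an unadjusted p under 0.05), and the median was 0.36 with fragment class. Mylk, the kinase that starts smooth muscle contraction, was between 92.5 and 102 CPM in intact females and between 106 and 120 in OVX females. The groups did not overlap, and the log2 fold change of Mylk was 0.21 (adjusted p = 0.115). The smooth muscle genes Myh11, a myosin, and Tagln, an actin-binding protein, had log2 fold changes of 0.31 and 0.25. Of 17 genes of barrier junctions and transporters 13 were higher, 9 at an unadjusted p under 0.05 (median 0.20, 0.33 with fragment class). Without OVX 1 and OVX 4 the genes at that level were 3 among barrier genes and 3 among those of pericytes and smooth muscle. With 1 library left out they were 5 to 11 and 4 to 11. Of the barrier genes, Itm2a had a log2 fold change of 0.47, the organic anion transporter Slco1a4 0.34 and the lipid transfer protein Pltp 0.25. Tjp1, the junction scaffold with the most reads of the list, was at 0.09. The efflux pump Abcg2 and the lipid carrier Mfsd2a were at −0.25 and −0.14, and at −0.04 and 0.06 with fragment class.

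Basement membrane is the sheet of collagen and laminin under the endothelium. Of 16 tested genes 15 were higher, 7 at an unadjusted p under 0.05, with a median of 0.20. Without OVX 1 and OVX 4 that count was 1, and with 1 library left out it was 3 to 10. Col4a1 was between 42.3 and 56.1 CPM in intact females and between 48.0 and 68.6 in OVX females (log2 fold change 0.36, adjusted p = 0.171), and the laminin genes Lama4 and Lamb1 had log2 fold changes of 0.31 and 0.32. Of 21 genes of VEGF and Notch signalling 14 were higher, 6 at an unadjusted p under 0.05, and 1 was lower at that level. The median was 0.11. Without OVX 1 and OVX 4, 2 were higher at that level, and 3 to 9 were with 1 library left out. Pdgfb, which draws pericytes to endothelium, was between 3.96 and 6.22 CPM in intact females and between 6.09 and 7.60 in OVX females, where only intact 3 reached the lowest OVX library (log2 fold change 0.52, adjusted p = 0.160). Aplnr, the apelin receptor, had a log2 fold change of 0.30 (adjusted p = 0.160), and Notch1 one of 0.14. Nrp2, a coreceptor for VEGF and semaphorins, was lower (−0.18).

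Blood cells were traced through genes of red cells. From 13 listed genes 5 gene entries were tested, 2 of them of Hba-a2. All 5 entries were higher at an unadjusted p under 0.05, with a median log2 fold change of 0.90. Their summed level was between 5.14 and 31.4 CPM in intact females and between 27.2 and 45.1 in OVX females, and the most abundant gene was Hba-a2, an alpha globin counted under 2 gene entries. The median was 0.61 in the model with fragment class, and 0 were at that level, while in short-fragment libraries only it was 0.60 and 4 were. Hbb, the beta globin, was between 0.417 and 3.90 CPM in intact females and between 3.55 and 6.04 in OVX females (log2 fold change 1.05, adjusted p = 0.236). The part of blood left in the vessels in the endothelial and immune results was not tested.

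**Figure D3:**
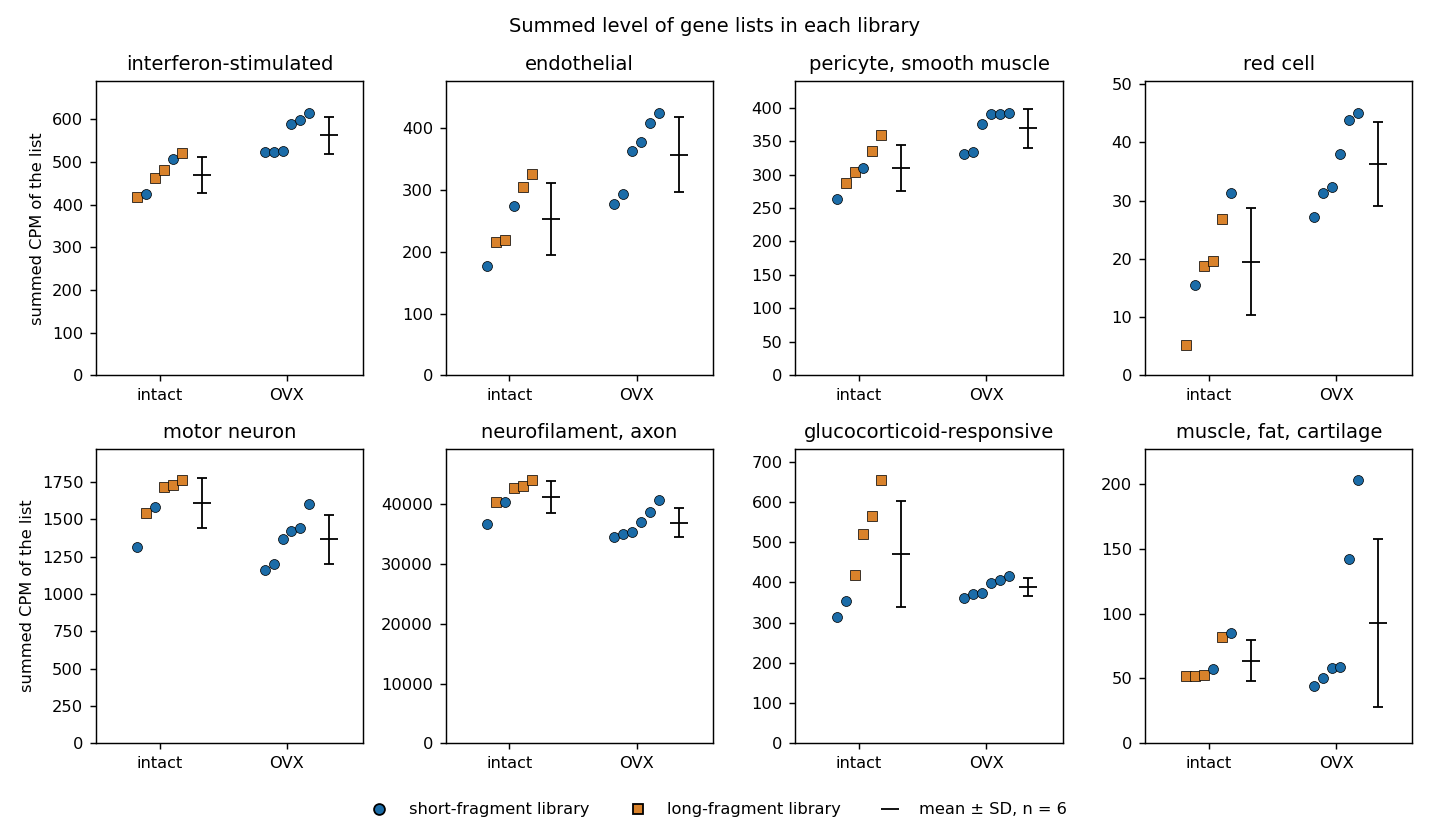
Summed levels of 8 gene lists in each library, marked by fragment class. The interferon list was between 418 and 521 CPM in intact females and between 523 and 616 in OVX females, and the endothelial list between 177 and 326 and between 277 and 426.

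Motor neuron genes were lower as a group in the model of 6 against 6 rats. These neurons send the axons that leave the ventral horn, and they are large cells rich in neurofilament. Of 26 tested motor neuron genes 22 were lower in OVX females, 11 at an unadjusted p under 0.05 and 0 higher at that level, with a median log2 fold change of −0.24. Slc18a3, which loads acetylcholine into vesicles, was between 43.9 and 68.5 CPM in intact females (median 63.2) and between 31.3 and 48.4 in OVX females (median 43.5). Only intact 1 (43.9) lay within the OVX range. The log2 fold change of Slc18a3 was −0.55 (adjusted p = 0.149). Prph, a neurofilament of motor neurons with the most reads of the list, was between 228 and 319 CPM in intact females and between 177 and 270 in OVX females (log2 fold change −0.37, adjusted p = 0.194). Chat had a log2 fold change of −0.39, Isl1, a transcription factor of motor neuron identity, −0.67, and Ret, a receptor for GDNF, −0.29. Pou3f1, another transcription factor of these cells, was higher (0.19).

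Fragment class moved these values. With it in the model 19 of the 26 motor neuron genes were lower, but the median was −0.08. At an unadjusted p under 0.05, 2 of the 26 were lower, beside 412 of all 14910 genes in that model. The log2 fold change of Slc18a3 was then −0.30, that of Prph −0.22, that of Chat −0.10, that of Isl1 −0.16 and that of Ret −0.05. The summed level of the list was 1317 and 1581 CPM in the short-fragment intact females 1 and 4, between 1544 and 1759 in the long-fragment ones, and between 1159 and 1604 in OVX females. Without OVX 1 and OVX 4 the median was −0.32 with 16 genes at an unadjusted p under 0.05. For the long-fragment intact females, surgery and fragment class cannot be told apart.

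Axons, channels and synapses showed the same lean at smaller size. Of 29 genes of neurofilaments and axons 27 were lower, 13 at an unadjusted p under 0.05, and 1 was higher at that level. The median was −0.08 (−0.05 and 3 lower genes with fragment class). The neurofilament genes Nefl, Nefm and Nefh had log2 fold changes of −0.25, −0.33 and −0.29, and −0.12 in all 3 with fragment class. Of 51 potassium channel genes 35 were lower, 13 at an unadjusted p under 0.05 (median −0.08), and 2 at that level with fragment class (median −0.05). Kcng1, a silent subunit that modifies other channels, was between 14.2 and 20.7 CPM in intact females and between 11.4 and 15.6 in OVX females, with intact 1 alone inside the OVX range (log2 fold change −0.45, adjusted p = 0.150). Fragment class in the model gave −0.23 for Kcng1. Of 33 sodium and calcium channel genes 20 were lower, 11 at an unadjusted p under 0.05, and 1 was higher at that level. The median was −0.04. With fragment class the median was −0.10 and 2 genes were lower at that level, and without OVX 1 and OVX 4 they were 5. The channel genes Cacng2, Cacna2d3 and Cacna1h had log2 fold changes of −0.16, −0.17 and −0.24.

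Genes of transmission had small medians. Of 33 synaptic vesicle genes 24 were lower, 5 at an unadjusted p under 0.05 (1 with fragment class). In the other direction 1 was higher at that level, and the median was −0.05. The vesicle proteins Syp, Vamp1 and Sv2c had log2 fold changes of −0.11, −0.12 and −0.15. Genes of glutamate signalling had a median of −0.03 over 34 tested, and those of GABA and glycine −0.00 over 28 tested. Grin3b, an NMDA receptor subunit of motor neurons, was between 9.16 and 16.6 CPM in intact females and between 7.9 and 11.3 in OVX females, with intact 1 inside the OVX range (log2 fold change −0.53, adjusted p = 0.160). Perineuronal net genes had a median of −0.01 over 15 tested. Neuropeptide genes were higher in 10 of 12 (median 0.20) and dorsal horn genes in 7 of 12 (median 0.17). With fragment class in the model those medians were 0.00 and −0.12.

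Plasticity of breathing depends on growth factors, serotonin receptors and oxygen radicals around phrenic motor neurons. Of 51 listed genes of this kind 39 were tested, 15 higher and 24 lower, with a median of −0.03. At an unadjusted p under 0.05, 8 were higher and 4 lower. With fragment class in the model 20 of the 39 were higher, 8 higher and 0 lower at that level (median 0.01). Kdr, which is on this list, was the member that rose. Mapk3, the kinase ERK1, was between 114 and 126 CPM in intact females and between 127 and 142 in OVX females, without overlap (log2 fold change 0.16, adjusted p = 0.171). Cybb, the catalytic unit of NADPH oxidase in microglia, was between 4.54 and 6.20 CPM in intact females and between 6.14 and 8.62 in OVX females (log2 fold change 0.47, adjusted p = 0.172). Bdnf had a log2 fold change of −0.25 at 0.803 to 2.66 CPM, its receptor Ntrk2 one of 0.00, and the serotonin receptor Htr2a −0.13. Nrg1, a growth factor that motor neurons make, was lower (−0.28, adjusted p = 0.307, and −0.15 with fragment class). The serotonin receptor Htr7 was below the filter.

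Hormone receptors and their known targets were examined because surgery removed the ovaries, the main source of circulating estradiol and progesterone. Of 13 receptor genes 7 were higher and 6 lower, with 1 higher and 2 lower at an unadjusted p under 0.05 and a median of 0.01. The estrogen receptors Esr1 and Esr2 were low, at 1.17 to 2.04 and 2.86 to 5.25 CPM, with log2 fold changes of 0.06 and 0.07 (−0.25 and 0.01 with fragment class). The membrane receptor Gper1 was at 0.23 and the progesterone receptor Pgr at −0.06. Paqr8, a membrane progestin receptor with the most reads of the list, was at −0.10. Of 14 estrogen-responsive genes 6 were higher and 8 lower, 1 and 3 at an unadjusted p under 0.05 (median −0.05). Fragment class in the model gave 8 higher and 6 lower, 1 and 0 at that level (median 0.01). Cxcl12, a chemokine that endothelial cells also make, was between 10.8 and 23.3 CPM in intact females and between 14.3 and 29.7 in OVX females (log2 fold change 0.61, adjusted p = 0.271). Ctsd, a lysosomal protease, and Nrip1, a nuclear receptor corepressor, were at −0.13 and −0.14. The largest fold change of the list was that of Sgk1 (−0.83), which is also among the glucocorticoid targets described below. Its direction turned with fragment class in the model. Steroid synthesis genes were higher in 10 of 13 with a median of 0.04, and Srd5a1, which reduces progesterone and testosterone, was at 0.16. Cyp19a1, the enzyme that makes estradiol, was below the filter.

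The full palindrome of the estrogen response element, GGTCANNNTGACC, was searched in the same promoters. It reads the same on both strands. It was in the promoters of 7 of 27457 genes (0.0255%), in 1 of the 10442 tested genes with a promoter, and in 0 of the promoters of the estrogen-responsive list, the interferon list, the endothelial list and the genes that rose or fell.

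Glucocorticoid targets differed in direction with the model. Adrenal steroids set these genes, and they respond to stress and to time of day. Of 15 tested genes 14 were lower in OVX females, 6 at an unadjusted p under 0.05, with a median log2 fold change of −0.18. That count was 1 without OVX 1 and OVX 4, and between 2 and 10 with 1 library left out. With fragment class in the model 13 were higher, 4 at an unadjusted p under 0.05, with a median of 0.29. The summed level was 313 and 353 CPM in the short-fragment intact females, between 418 and 654 in the long-fragment ones and between 362 and 415 in OVX females. Sgk1, a kinase that glucocorticoids induce, was at 29.3 and 39.0 CPM in intact 1 and 4, between 54.9 and 141 in the other intact females and between 36.2 and 53.4 in OVX females. Its log2 fold change was −0.83 (adjusted p = 0.334), and 0.37 with fragment class. Fkbp5, a chaperone that restrains the glucocorticoid receptor, had log2 fold changes of −0.25 and 0.07, and Tsc22d3, the member with the most reads, −0.12 and 0.08. Mt1, a metallothionein, was lower under both (−0.78 and −0.50).

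Clock genes also depended on the model. Of 19 tested genes 13 were lower, 6 at an unadjusted p under 0.05, and 2 were higher at that level, with a median of −0.07. With fragment class the median was 0.01, and 3 were higher and 0 lower at that level. Dbp, a clock output gene, was between 52.7 and 76.8 CPM in intact females and between 45.9 and 51.8 in OVX females, without overlap (log2 fold change −0.29, adjusted p = 0.185). The clock repressors Nr1d2 and Per3 had log2 fold changes of −0.22 and −0.17. With fragment class the values were −0.13 for Dbp, −0.15 for Nr1d2 and −0.05 for Per3. Arntl, the core activator that runs opposite to them, was between 13.8 and 21.4 CPM in intact females and between 20.6 and 24.5 in OVX females (log2 fold change 0.29, adjusted p = 0.257). The hour at which each rat was killed is not in the labels, and its part was not tested.

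Glial cells other than microglia had small medians. Of 23 astrocyte genes 13 were higher and 10 lower, 3 each way at an unadjusted p under 0.05, with a median of 0.06. Fragment class in the model gave 17 higher, 6 at that level and 0 lower at it (median 0.08). Slc1a3, the astrocyte glutamate transporter, was between 117 and 130 CPM in intact females and between 134 and 141 in OVX females, without overlap (log2 fold change 0.17, adjusted p = 0.149). Gfap and the water channel Aqp4 were at 0.17 and 0.12, and glutamine synthetase, Glul, at −0.14 (−0.03 with fragment class). Myelin genes were higher in 21 of 23 with a median of 0.05, Mbp at 0.03 and Cnp, a myelin enzyme, at 0.08. Genes of oligodendrocyte precursors were higher in 12 of 17 (median 0.05). Gpr17, a receptor of precursors that have begun to differentiate, was between 10.1 and 15.1 CPM in intact females and between 15.6 and 18.2 in OVX females, without overlap (log2 fold change 0.33, adjusted p = 0.211).

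Cholesterol synthesis supplies the membrane of myelin. Of 31 tested genes 28 were higher in OVX females, 11 at an unadjusted p under 0.05, although the median was small at 0.06. Hmgcs1, the enzyme that starts the pathway, was between 443 and 534 CPM in intact females and between 553 and 589 in OVX females, without overlap (log2 fold change 0.19, adjusted p = 0.149). The later enzymes Sqle and Msmo1 were at 0.14 and 0.13. In the model with fragment class 27 were higher, 4 of them at an unadjusted p under 0.05. Leaving out OVX 1 and OVX 4 gave 23 higher, 7 at that level.

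Dividing cells are few in adult cord, and their genes were higher in 20 of 27 tested, 6 at an unadjusted p under 0.05, with a median of 0.15. In the model with fragment class 2 were higher and 1 lower at that level (median 0.24), and with 1 library left out 3 to 8 were higher. Mki67, the usual marker of division, was between 4.54 and 9.49 CPM in intact females (median 7.28) and between 10.4 and 12.3 in OVX females (median 11.7). Its groups did not overlap, and the log2 fold change was 0.68 (adjusted p = 0.149). Kif23, a motor protein of cell division, was between 0.983 and 1.58 CPM in intact females and between 1.65 and 3.06 in OVX females (log2 fold change 0.81, adjusted p = 0.171).

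The genes closest to the threshold in each direction add further functions. Mmp14, a membrane-bound protease that clears matrix around growing vessels, was between 22.1 and 31.4 CPM in intact females (median 23.7) and between 28.8 and 36.0 in OVX females (median 33.6). Intact 4 was the only intact library in the OVX range, and the log2 fold change of Mmp14 was 0.42 (adjusted p = 0.106). Slco3a1, a transporter of prostaglandins and thyroid hormone, was between 37.6 and 41.7 CPM in intact females and between 41.9 and 46.4 in OVX females (log2 fold change 0.21, adjusted p = 0.115). Its relative Slco2b1, an organic anion transporter, also had groups without overlap (log2 fold change 0.28, adjusted p = 0.149). Arhgap31, Epb41l2 and Dchs1, which act on the cell skeleton and on cell contacts, had log2 fold changes of 0.22, 0.20 and 0.29 (adjusted p = 0.149 each).

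Among lower genes, Tppp3, a protein that promotes tubulin polymerization, was between 195 and 205 CPM in intact females and between 167 and 188 in OVX females, without overlap (log2 fold change −0.18, adjusted p = 0.115). Htra1, a secreted protease, was between 215 and 272 CPM in intact females and between 198 and 225 in OVX females, with intact 1 alone in the OVX range (log2 fold change −0.26, adjusted p = 0.115). Capn1, a calcium-activated protease, had a log2 fold change of −0.35, and Camk1d, a calcium-regulated kinase, −0.20 (adjusted p = 0.149 each). The adhesion molecules L1cam and Cadm3 were at −0.21 and −0.24, and Itih3, which binds hyaluronan, at −0.21. Fam189b, a membrane protein, Golga3, a Golgi protein, Myo19, a motor of mitochondria, and Pmm1, an enzyme of mannose metabolism, were at −0.23, −0.18, −0.29 and −0.21. The adjusted p-values of these 7 genes were between 0.149 and 0.160. Fragment class in the model gave −0.16 for Htra1, −0.10 for Camk1d, −0.12 for Cadm3, −0.09 for Itih3 and −0.11 for Golga3.

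Genes of neighbouring tissues were followed because tissue at the edge of the sample can add RNA. Meninges and fibroblast genes were higher in 21 of 27 (median 0.22, 0.20 without OVX 1 and OVX 4, and 0.07 to 0.30 with 1 library left out), with 1 at an unadjusted p under 0.05 (1 to 6 with 1 library left out) and a summed level of 651 to 1543 CPM in intact females and 911 to 1694 in OVX females. Col1a1 had a log2 fold change of 0.52 (adjusted p = 0.571), and the laminin Lamc3 one of 0.35. Schwann cell and root myelin genes had a median of 0.04 over 11 tested, ependymal and cilia genes 0.07 over 21, sensory ganglion genes −0.12 over 6 and Hox genes of the cervical cord −0.05 over 18. The sensory ganglion median was −0.33 without OVX 1 and OVX 4, with 3 genes lower at an unadjusted p under 0.05. Genes of muscle, fat, bone and cartilage had a median of 1.27 over 7 tested, which was −0.35 without OVX 1 and OVX 4. The summed level of that list was 142 and 203 CPM in those libraries and 44.5 to 59.0 in the other OVX libraries. Intact females were between 51.6 and 85.0 CPM. The member with the most reads was Acan, which is also on the perineuronal net list (log2 fold change −0.15), so the sum is not muscle RNA alone.

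Ribosomal protein genes had a median log2 fold change of −0.02 over 81 tested, and genes of oxidative phosphorylation −0.02 over 75. The 13 genes of the mitochondrial genome had a median of −0.01, and 37 proteasome genes −0.01. In the model with fragment class the ribosomal median was −0.09 with 9 genes lower at an unadjusted p under 0.05, that of oxidative phosphorylation −0.06 with 6, that of the mitochondrial genome −0.09 with 0 and that of the proteasome −0.05 with 2. Over all 14910 genes, 412 were lower at that level in that model. Heat shock and unfolded protein genes had a median of 0.02 over 26 tested, and immediate early genes 0.00 over 23 (0.16 with fragment class). The mitochondrial protein genes held 3.13% to 3.80% of counts in intact females and 3.17% to 4.12% in OVX females (difference 0.01 percentage points, exact permutation p = 0.955).

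**Figure D4:**
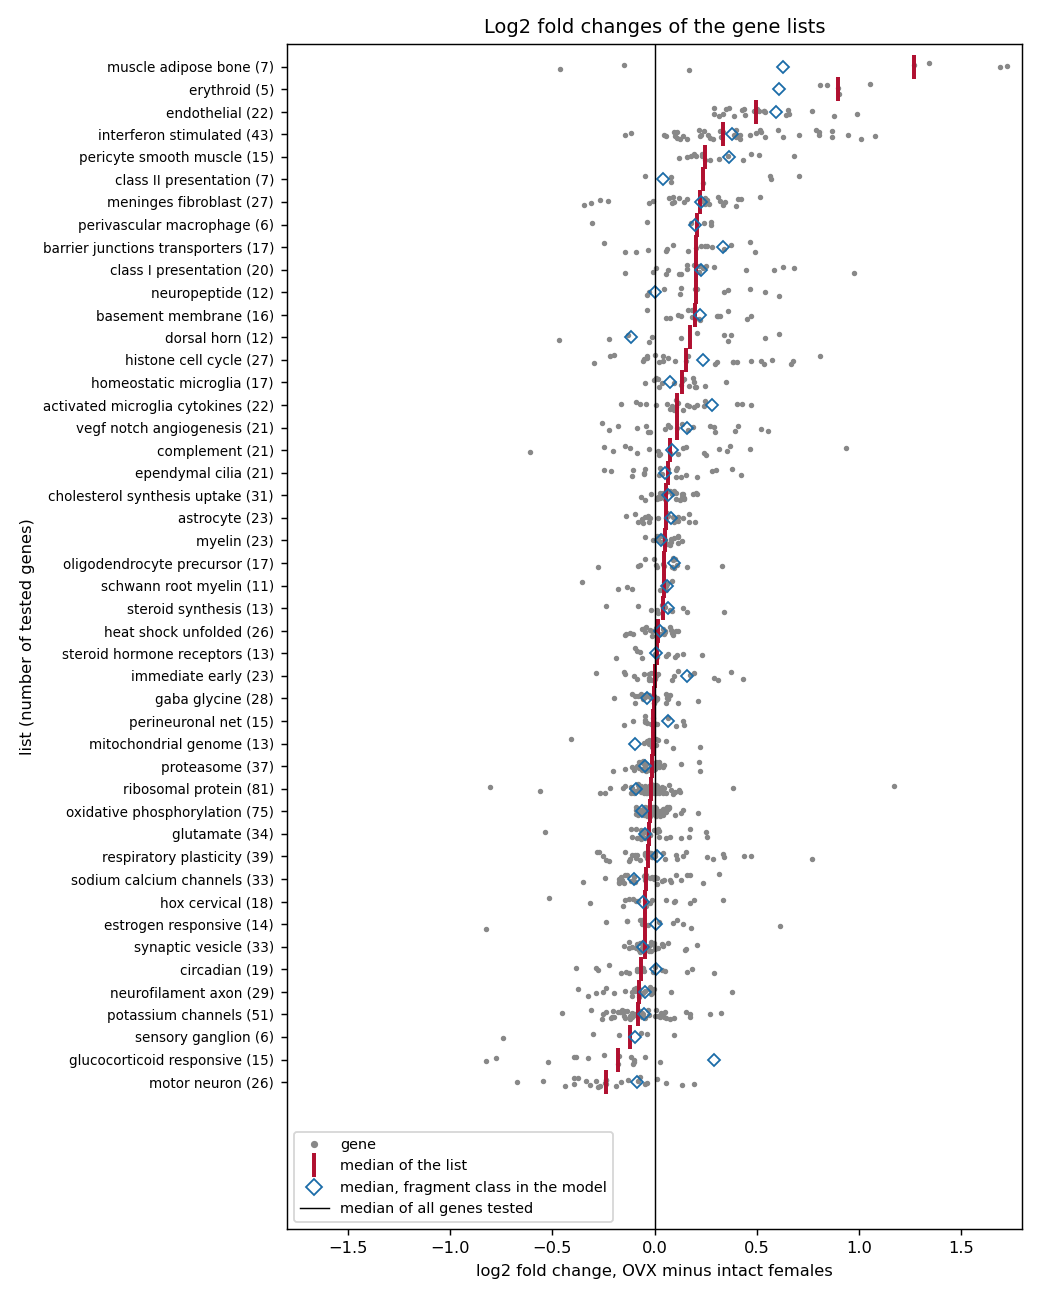
Log2 fold changes of the tested genes of each list with at least 5 of them, with list medians from the model of 6 against 6 rats and from the model with fragment class. The medians were 0.50 and 0.59 for endothelial genes, 0.34 and 0.38 for interferon genes, −0.24 and −0.08 for motor neuron genes and −0.18 and 0.29 for glucocorticoid targets.

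Intact and GDX males of the series show removal of the gonads in the other sex, with its own controls. Fragment class was unequal there too, with all 5 GDX males short and 3 of the 5 intact males long. Removing the testes takes away testosterone and the estradiol that tissues make from it. The endothelial genes had a median log2 fold change of 0.53 in males, against 0.50 in females, and 14 of 22 were higher at an adjusted p under 0.1 in males. Over all 14931 genes tested in males, 1012 were higher (6.78%) and 983 lower (6.58%) at that level. With fragment class in the male model the endothelial median was 0.35 with 2 genes called, beside 336 higher (2.25%) and 460 lower (3.08%) over all genes. Pericyte and smooth muscle genes had medians of 0.38 and 0.25, and barrier genes 0.28 and 0.20. Genes of other tissues were also higher in GDX males. The median was 1.41 for meninges and fibroblasts, with 26 of 27 higher at an adjusted p under 0.1, against 6.78% of all genes. It was 1.72 for red cells, 0.81 for Schwann cells and roots and 0.53 for basement membrane. With fragment class in the male model the medians were, in that order, 1.70, 1.785, 0.932 and 0.475. The genes then called higher were 17, 0, 3 and 8. The part of these tissues in the vessel values of males was not tested. Kdr rose in males (log2 fold change 0.64, adjusted p = 0.0102), and so did Cd93 (0.53, adjusted p = 0.0624). Neither was called there with fragment class in the model (0.34 and 0.26, adjusted p = 0.150 and 0.508). The test of the difference between the sexes did not call either gene (adjusted p = 0.858 and 0.507).

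The interferon list had a median of 0.10 in males against 0.34 in females, with 1 of 43 genes higher and 1 lower at an adjusted p under 0.1 in males, against the 6.78% and 6.58% of all genes given above. The male median was −0.11 with fragment class. Bst2 had a log2 fold change of −0.03 in males and 0.80 in females, a difference of 0.83 (adjusted p = 0.153). RT1-S3 was at 0.11 in males and 0.68 in females, a difference with an adjusted p of 0.267. Adar, lower in males (−0.23, adjusted p = 0.0131), was the 1 interferon gene whose response differed between the sexes (difference 0.28, adjusted p = 0.0973, and 0.115 with fragment class). Cholesterol genes had a median of −0.01 in males against 0.06 in females. Motor neuron genes had medians of −0.14 in males and −0.24 in females, and synaptic vesicle genes −0.23 and −0.05. In the models with fragment class the motor neuron medians were −0.03 and −0.08.

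The response to surgery differed between the sexes in 18 of 15562 genes (0.116%). That count was 6 with fragment class in the model, and between 1 and 275 with 1 library left out. In Pkp4, a junction protein, the log2 fold change was −0.04 in females and 0.32 in males (adjusted p of the difference 0.0179). In Plekhb1, a protein of myelinating cells and photoreceptors, the values were −0.10 and 0.27 (adjusted p = 0.0414). Slc26a7, an anion transporter, was at −0.31 in females, between 0.486 and 3.25 CPM in intact and 0.967 and 1.72 in OVX rats, and at 2.83 in males (adjusted p = 0.0630). Slc26a7 is a gene of the meninges list, which was higher as a whole in GDX males, as given above. Rgma, which repels growing axons, was at −0.15 and 0.40 (adjusted p = 0.0630). In Slco3a1 the order was the other way, at 0.21 in females and −0.11 in males (adjusted p = 0.0735). Dbp was lower in OVX females (−0.29) and higher in GDX males (0.25), with an adjusted p of 0.0973 for the difference (0.113 with fragment class).

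**Figure D5:**
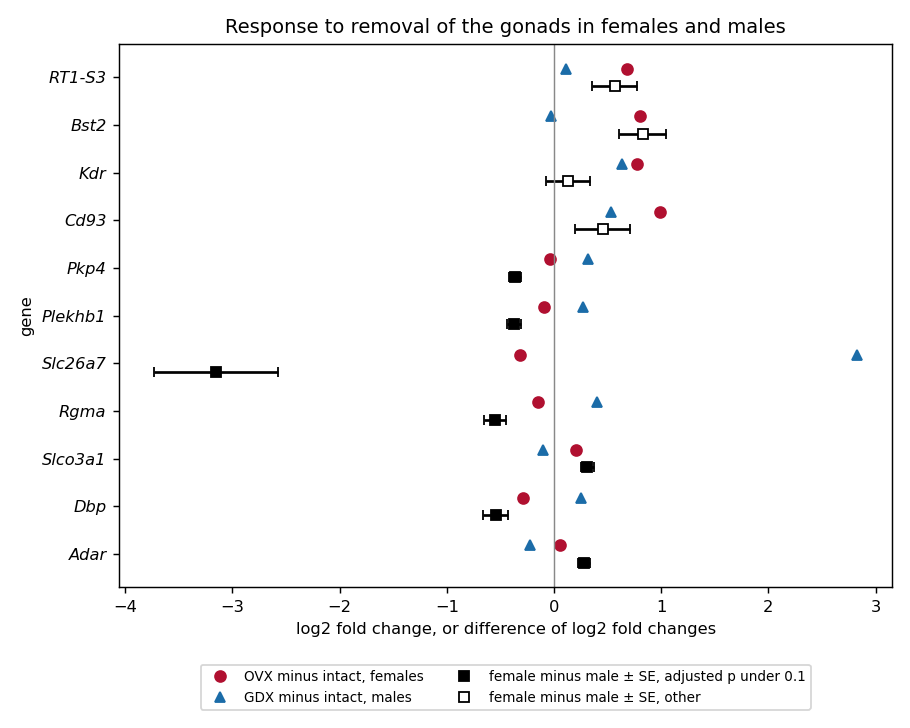
Log2 fold changes after removal of the gonads in females and males, and their difference with its standard error, for the 4 genes that rose in females and 7 genes that differed between the sexes. The difference was 0.83 for Bst2 (not called), −0.36 for Pkp4 and −3.15 for Slc26a7.

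The single-gene calls rest on 6 rats a group and on adjusted p-values close to the threshold. The unequal spread of fragment classes bears on them and on the lists, as the values beside each show. Among those lists are the neuronal, glucocorticoid, clock, class II, red cell, interferon, microglia, astrocyte, cell division and breathing plasticity genes.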

How the data were processed

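The measurement is bulk RNA sequencing of ventral cervical cord, with 1 library per rat. The values used are the counts per gene that the authors deposited, which had not been normalized. The submitters' processing notes name FastQC, TopHat2 2.0.13, Subread and edgeR with the rat build Rnor_6.0 and a TruSeq library protocol, while the methods of the study name Hisat2 for mapping and a SMARTer Pico kit for the libraries. Which of these applied was not settled here. The strand setting of the counting is not given. Reads of paralogs, such as the RT1 genes and Hba-a2 under 2 gene entries, are uncertain between them.

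Here 12 libraries were fitted in R 4.3.3 with edgeR 4.0.16: genes kept by filterByExpr, TMM factors, the quasi-likelihood F-test and Benjamini-Hochberg adjustment over all genes tested. The difference between the sexes was tested as an interaction over the 22 rats. Library measures were compared by an exact permutation test over rats. The alternatives were DESeq2 1.42.0, the likelihood ratio test, RLE size factors, other filters, fragment class or RIN as a term, short-fragment libraries alone, all 22 rats in 1 fit, a block for replicate numbers, and each library left out in turn. A fit without OVX 1 and OVX 4 was added after their muscle genes were seen. A fit of the males with fragment class was also added after the first results. The code was tried on simulated data first.

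The genes named are those at an adjusted p under 0.1, the 15 with the smallest p in each direction, the 3 with the smallest p in each direction and the most reads in each of 48 gene lists, markers, the 5 strongest differences between the sexes, and genes said to be named after their values were seen. Not every gene that meets the rule is printed, and some results are not reported here. The members and the lists were chosen with earlier results of these data known, so lists are described by counts and medians with no test. A list is described by its tested genes, and genes below the filter have no fold change. Promoters came from RefSeq, build GRCr8, matched by symbol. No genome of the build of the counts was at hand.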

Additional observations from a re-analysis of the deposited data

Results flagged for a closer look

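Single rats far from the other 5 of their group were looked for in 348 groups of 6 values, and 21 were found, where chance marks about 1 in 20 groups. Among intact females, intact 1 was far from the others in Epb41l2 (267 CPM against 239 to 247), Mt1 (0.678 against 1.25 to 1.49), Nrp2 (62.1 against 80.2 to 85.7) and the summed receptor list (431 against 451 to 462). Intact 2 stood apart in Htr2a (19.3 CPM against 16.6 to 17.6), and intact 3 in Hmgcs1 (443 against 508 to 534) and RT1-CE4 (8.4 against 5.55 to 6.35). Intact 4 did so in Srd5a1 (39.8 CPM against 47.5 to 52.0), and intact 6 in Dbp (76.8 against 52.7 to 59.4) and Psmb8 (4.24 against 1.6 to 1.99). Intact 5 was apart in the summed lists of homeostatic microglia (340 CPM against 360 to 369) and of synaptic vesicles (7980 against 7750 to 7820).

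Among OVX females, OVX 3 was far from the others in Abcg2 (5.34 CPM against 6.05 to 6.45), Slco3a1 (41.9 against 45.5 to 46.4) and the share of counts in the ribosomal RNA entry AY172581.24 (16.7% against 12.7% to 13.9%). OVX 4 stood apart in Aif1 (14.1 CPM against 16.8 to 17.8) and in the summed myelin list (26300 against 28700 to 30100), and OVX 5 in Lamc3 (6.93 against 8.05 to 8.64) and Srd5a1 (45.8 against 53.5 to 57.2). OVX 2 did so in Slco2b1 (31.4 CPM against 27.1 to 28.6), and OVX 6 in Msmo1 (94.0 against 102 to 106).

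A difference between the sexes in the log2 response to surgery, female minus male, was found by its own test in 7 genes named above. The differences were −0.36 for Pkp4, −0.37 for Plekhb1, −3.15 for Slc26a7, −0.55 for Rgma, 0.31 for Slco3a1, 0.28 for Adar and −0.54 for Dbp, with adjusted p-values in edgeR between 0.0179 and 0.0973.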

How the results depend on the processing

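With 6 rats a group, calls near an adjusted p of 0.1 depended on the test and on single rats, and directions of named genes depended mainly on fragment class. The 5 genes at an adjusted p under 0.1 were 7 with RLE size factors, 164 with DESeq2, 11 without a filter, 100 by the likelihood ratio test, 3 with fragment class as a term, 7 in short-fragment libraries only, 11 with RIN as a term, 9 with all 22 rats in 1 fit and 5 without OVX 1 and OVX 4. In place of 4 higher and 1 lower, they were 1 and 2 with fragment class, 2 and 5 in short-fragment libraries only, and 1 and 4 without OVX 1 and OVX 4, where none of the 4 genes that rose was among them. With 1 library left out they were between 0 (without OVX 1 or OVX 6) and 113 (without intact 1), with 38 without OVX 4. Where edgeR called 0 genes without OVX 1, 600 were higher and 624 lower at an unadjusted p under 0.05.

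The 783 genes higher at an unadjusted p under 0.05 were between 600 and 1019 in every fit. The 733 lower genes were 412 with fragment class and 377 in short-fragment libraries only, and between 586 and 857 with 1 library left out. The 18 genes that differed between the sexes were 234 with DESeq2, 33 without a filter, 6 with fragment class, 5 in short-fragment libraries only, and between 1 (without GDX 5) and 275 (without GDX 1) with 1 library left out. Replicate numbers do not pair the rats (correlations of rats with the same number between −0.0805 and 0.0449). A block for them gave 0 genes in edgeR for both counts, with 660 genes higher and 596 lower at an unadjusted p under 0.05.

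The direction turned in these genes, each written as its log2 fold change with fragment class as a term and then in short-fragment libraries only: Aif1 −0.114 and −0.118, Esr1 −0.246 and −0.248, Fkbp5 0.074 and 0.070, Mbp −0.058 and −0.062, Mfsd2a 0.063 and 0.059, Psmb8 0.105 and 0.097, Sgk1 0.368 and 0.365, Tsc22d3 0.080 and 0.076. Without OVX 1 and OVX 4 it turned in Acta1 (−0.351), Calr (−0.023) and Esr2 (−0.092), and Ntrk2 was −0.002 without a filter and −0.003 with all rats in 1 fit. With 1 library left out, log2 fold changes were between −0.033 and 0.066 for Aif1, −0.012 and 0.048 for Calr, −0.004 and 0.148 for Esr1, −0.020 and 0.146 for Esr2, −0.016 and 0.019 for Ntrk2, and −0.285 and 0.137 for Psmb8. The cause was not tested. Genes under about 2 CPM rest on few reads.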

Other observations

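Reads of the ribosomal RNA entry AY172581.24 held 12.3% to 16.8% of counts in intact females and 12.7% to 16.7% in OVX females (difference −0.273 percentage points, exact permutation p = 0.777). Total counts differed by −192000 reads between the group means (exact permutation p = 0.857).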
